A study of Mus musculus with 32 samples.

Results

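The Rab GTPases of mouse skeletal muscle were followed in wild-type (WT) mice and in mice without Mtm1, from postnatal day 1 to day 35. Members were taken by symbol: a gene belonged to the set if its name was Rab followed by a number and at most 1 letter from a to d, and if at least 10 counts were found in at least 4 libraries. Of 54838 genes in the table, 59 had such a name and 58 passed. Rab3c, a vesicle Rab of neurons, was the 1 that did not, with 10 or more counts in 2 libraries, whereas the members nearest to the limit, Rab39 and Rab17, reached it in 5 and 6 libraries.

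RNA of the tibialis anterior muscle came from 8 groups of n = 4 mice. WT and Mtm1 knockout (KO) animals were compared at postnatal day (P) 1, P14, P21 and P35, all on a C57BL6/J background. KO mice carry an exon 4 deletion of Mtm1, an X-linked gene for a phosphatase of phosphoinositide lipids on endosomes. The deletion is present in every tissue, so that muscle fibres, vessels, nerve and immune cells of the sample all carry it, and reads from the other exons can still be counted.

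Rab proteins are small GTPases of the Ras superfamily that mark the membranes of the cell. In the GTP-bound state each one recruits effectors (tethers, motors and lipid enzymes) to its own compartment, and exchange factors (GEFs) and GTPase-activating proteins (GAPs) turn it on and off. In muscle they are best known for bringing GLUT4 vesicles to the surface in response to insulin and contraction, for endosomal recycling and for the autophagosome and lysosome pathway. Several act together with PI3P, the lipid that MTM1 removes.

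Levels were given as CPM, the count of a gene scaled to the TMM-adjusted size of its library over all 32 libraries, or as CPM per kb of merged exons where genes were compared with each other. Fold changes came from edgeR's quasi-likelihood fit of the 2 groups compared, and P-values were adjusted over all tested genes after Benjamini and Hochberg. A gene was called a differentially expressed gene (DEG) where the adjusted P was under 0.01 and the change more than 1.5-fold, and a wider call used an adjusted P under 0.05 at any fold. With 1 library per mouse, these P-values set the difference between groups against the spread between the mice of a group. The fit estimates that spread for each gene with information shared over all tested genes.

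Library totals ran from 49321035 to 85631408 counts. Mtm1 lay at 18.9 to 24.9 CPM in the WT libraries from P14 on and at 2.64 to 4.51 CPM in the KO libraries, and at P1 at 5.26 to 6.02 and 2.32 to 3.91 CPM, so that the genotypes did not overlap at any age. At P1 the difference did not pass the threshold (adjusted P = 0.0668). Of the 5 fibre markers, Acta1, Ckm, Ttn and Ryr1 were found in all libraries at 222 CPM or more, and Myh4 at 13.2 CPM or more. Skin markers stood out at P1: the summed level of 5 keratinocyte genes was 1544 to 5987 CPM in the P1 libraries and 2.49 to 6.97 CPM later. KO replicate 4 at P1 had the lowest sum of the fibre markers, 13512 CPM, in a range that reached 27380 CPM at this age. In whole muscle, fewer cells of a type and less RNA per cell cannot be told apart.

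Promoters are shown for 4 members, picked with their values known, to set Rab13, Rab40b and Rab15, which were higher in KO muscle, beside Rab3a, which was lower. Each is the 250 bases before the outermost start that RefSeq gives on GRCm38.p6, written 5′ to 3′ on the gene's own strand. GENCODE M21, from which the gene positions below come, starts Rab15 farther upstream, at 76822908. The Rab15 window therefore lies wholly inside the gene of that annotation. The windows of Rab13 and Rab3a run slightly past their GENCODE starts, 90213695 and 70754679. Capitals mark 3 short motifs on either strand: the CCAAT box (CCAAT), the GC box (GGGCGG) and the E-box CAGCTG, a site of the kind that myogenic factors bind. The AP-1 motif TGANTCA was also searched, and no capitals mark it because these windows do not hold it.
Rab13, chr3:90213465-90213714, plus strand: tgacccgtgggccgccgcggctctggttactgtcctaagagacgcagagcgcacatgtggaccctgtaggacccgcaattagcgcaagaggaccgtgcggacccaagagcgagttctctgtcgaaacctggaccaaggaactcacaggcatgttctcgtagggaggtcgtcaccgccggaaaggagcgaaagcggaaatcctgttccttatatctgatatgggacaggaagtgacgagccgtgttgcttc
Rab40b, chr11:121388252-121388501, minus strand: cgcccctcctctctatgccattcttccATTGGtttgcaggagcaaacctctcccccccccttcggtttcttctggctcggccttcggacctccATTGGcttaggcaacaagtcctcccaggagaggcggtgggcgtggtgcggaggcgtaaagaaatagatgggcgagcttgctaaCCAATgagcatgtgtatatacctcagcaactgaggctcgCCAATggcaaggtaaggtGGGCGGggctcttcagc
Rab15, chr12:76822525-76822774, minus strand: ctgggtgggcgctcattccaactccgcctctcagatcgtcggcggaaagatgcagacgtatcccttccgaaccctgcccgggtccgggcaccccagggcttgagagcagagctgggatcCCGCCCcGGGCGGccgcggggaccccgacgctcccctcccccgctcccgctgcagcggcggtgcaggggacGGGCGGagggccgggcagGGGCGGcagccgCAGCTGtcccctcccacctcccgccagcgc
Rab3a, chr8:70754453-70754702, plus strand: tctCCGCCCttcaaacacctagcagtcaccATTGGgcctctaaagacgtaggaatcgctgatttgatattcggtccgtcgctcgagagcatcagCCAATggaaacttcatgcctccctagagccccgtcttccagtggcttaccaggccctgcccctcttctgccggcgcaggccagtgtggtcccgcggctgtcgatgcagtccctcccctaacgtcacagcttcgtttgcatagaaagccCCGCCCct

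Rab13 held none of the 4 motifs, Rab40b held 4 CCAAT boxes and 1 GC box, Rab15 held 4 GC boxes and 1 E-box, and Rab3a held 2 GC boxes and 2 CCAAT boxes. The Rab15 window was the richest in G and C, at 75.2%, against 57.6% in Rab13 and Rab40b and 58.8% in Rab3a. RefSeq promoters could be matched to 47 members. GC boxes were found in 32 of these 47 (68.1%) and in 33% of 27026 promoters of all genes, CCAAT boxes in 21 (44.7%) and 34.5%, E-boxes in 6 (12.8%) and 12.7%, and AP-1 motifs in 1 (2.13%) and 6.85%. Of the 3 genes shown that were higher in KO muscle, Rab40b and Rab15 both held the GC box, as did Rab3a, which was lower. Because Rab13 held none of the 4 motifs, no motif could be shared by all 3. A motif match is a description of the letters and not of binding.

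Rab transcripts were dominated by a few members. In WT muscle at P35 the highest level was that of Rab10, which acts in GLUT4 vesicle exocytosis, at 137 ± 13.3 CPM per kb (SD, n = 4). Rab7, the late endosome and lysosome Rab, followed at 115 ± 13.3 CPM per kb, and Rab2a, of transport between the ER and the Golgi, at 93.8 ± 11.5 CPM per kb. Neither Rab10 and Rab7 nor Rab7 and Rab2a were separated by their spread. Next came Rab12, of recycling and autophagy, at 70.5 ± 6.42 CPM per kb, Rab1b, of ER to Golgi transport, at 63.1 ± 1.53 CPM per kb, and Rab5b, of the early endosome, at 48.2 ± 1.48 CPM per kb. Rab12 overlapped Rab1b, and Rab5b overlapped the next in order, Rab1a. These 6 genes made up 57.7% of the summed level per kb of all members. With the length of the longest transcript in place of merged exons, Rab7 came first at 139 and Rab10 second at 137 CPM per kb.

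**Figure D1:**
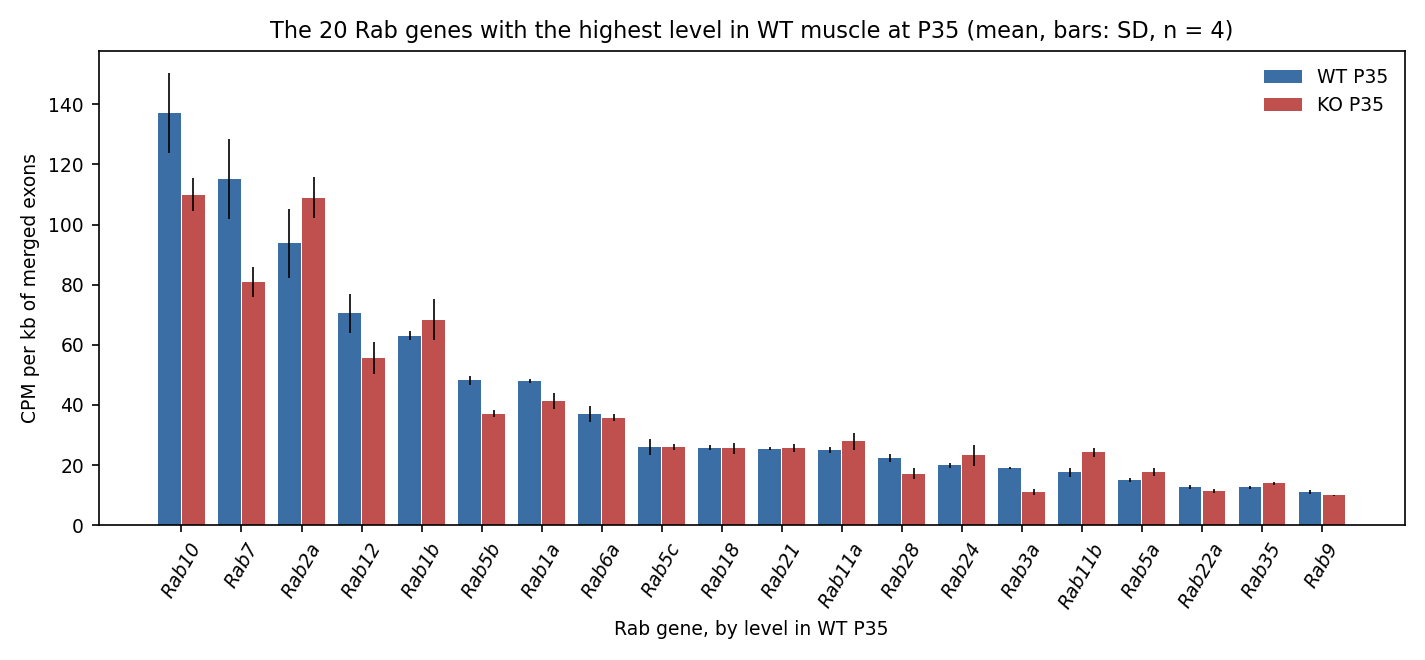
Mean level of the 20 Rab genes with the highest level in WT muscle at P35, in CPM per kb of merged exons, for WT and KO mice at P35 (bars: SD, n = 4 each). Rab10 and Rab7 led in WT at 137 and 115 CPM per kb, and Rab10 and Rab2a led in KO at 110 and 109 CPM per kb.

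At the other end, Rab25 had no counts in any WT library at P35, and Rab17, Rab39, Rab26 and Rab33a had means under 0.05 CPM per kb. The summed TMM-scaled level of the members was 1907 ± 73.2, 2728 ± 193, 2779 ± 159 and 3142 ± 153 CPM (SD, n = 4) in WT muscle over the 4 ages, in order. KO muscle had sums of 1911 ± 65.7, 2760 ± 185, 2824 ± 80.1 and 3006 ± 135 CPM at these ages, and the libraries of both genotypes overlapped at each. These sums rest on the scaling. Taken as a share of all counts in the library, the members held 0.28 to 0.296% in WT muscle at P1 and 0.224 to 0.242% at P35, so that the share was lower at the later age where the TMM-scaled sum was higher. In KO muscle the share was 0.29 to 0.311% at P1 and 0.282 to 0.311% at P35, and it lay above the WT range with no overlap from P14 on.

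The step from P1 to P14 brought the most Rab DEGs in WT muscle. Between P1 and P14, 32 of 56 members tested were DEGs. In the higher direction there were 12 (background 24.7% of 17435 genes tested), and in the lower direction 20 (background 30.4%). Those that rose most were Rab28, a Rab of the cilium, Rab3a, of regulated secretion, and Rab21, which works with integrins at the early endosome. Rab28 lay at 19.6, 21.0, 19.7 and 20 CPM at P1 and at 70.9, 65.7, 80.5 and 91.0 CPM at P14 (log2 fold change 1.93 ± 0.0989 (SE), adjusted P = 1.95e-07, edgeR). Rab21 lay at 27.2 to 31.2 CPM at P1 and at 79.5 to 93.2 CPM at P14 (log2 fold change 1.51 ± 0.0713, adjusted P = 1.29e-07). Rab3a lay at 11.4 to 13.3 CPM at P1 and at 38.7 to 50 CPM at P14 (log2 fold change 1.79 ± 0.0888, adjusted P = 1.64e-07). For these genes all libraries of P14 stood above all libraries of P1, and 2 of them went on to higher levels at P35, with 96.4 to 110 CPM of Rab28 and 125 to 131 CPM of Rab21 in WT muscle. Rab10 rose by 1.15 ± 0.0782 and Rab5b by 1.06 ± 0.0858 on the log2 scale between P1 and P14.

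The 3 members that fell most are known from epithelia, pigment cells and secretory granules. Rab25, of recycling in epithelial cells, had 416 to 1397 counts per WT library at P1 and 0 to 2 counts at P14 (5.96, 4.76, 13.8 and 6.12 CPM against at most 0.0312 CPM, adjusted P = 1.36e-06). Rab25 and Rab26, also a lower DEG of this step, reached 10 counts only in the 8 libraries of P1. Both were members through that age alone, so a fall was the only direction open to them and is no support for a decline. Rab38, of melanosomes and other lysosome-related organelles, lay at 4.10 to 7.17 CPM at P1 and at 0.397 to 1.18 CPM at P14 (log2 fold change -2.67 ± 0.295, adjusted P = 2.12e-05). Rab27b, a secretory granule Rab, lay at 9.89 to 13.8 CPM and then at 1.57 to 2.93 CPM (log2 fold change -2.10 ± 0.201, adjusted P = 7.91e-06). All 3 were highest among the WT libraries of P1 in replicate 3, at 13.8, 7.17 and 13.8 CPM, which also had the highest keratinocyte sum, 5987 CPM. Among the KO libraries of P1 all 3 were lowest in replicate 3, at 4.84, 3.98 and 6.59 CPM, which had the lowest keratinocyte sum, 1544 CPM. The highest keratinocyte sum among these KO libraries, 4624 CPM, was in replicate 1. The 3 genes were highest in KO replicate 4 instead, at 13.6, 9.95 and 16.9 CPM. The part of skin in these changes was not tested. With library totals in place of TMM, which moved the median of all genes in this step from -0.08 to -0.85, the DEGs split into 3 higher and 33 lower, and Rab28, Rab3a and Rab21 were the 3 that stayed higher. No share of all genes called with library totals is given beside these counts.

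Later steps were smaller. From P14 to P21, 3 of 50 members tested were DEGs, all lower (background 2.6%, and 2.93% in the higher direction). These were Rab13 (log2 fold change -0.66 ± 0.106, adjusted P = 0.00317), Rab40b (-0.69 ± 0.143, adjusted P = 0.00877) and Rab44 (-0.81 ± 0.152, adjusted P = 0.00593). The count was 0 without WT P14 replicate 1 or 2, 1 without WT P14 replicate 3 or WT P21 replicate 2 or 3, and 6 without WT P14 replicate 4. From P21 to P35 edgeR called 0 of 51 (background 2.45%), with DESeq2 calling 2 (Rab27a and Rab27b), 20 (39.2%) at an unadjusted P under 0.05 against 34.4% of all genes, and 10 passing the wider call, all of them higher (background 9.99%). Among those 10 were Rab24, of autophagy (log2 fold change 0.42 ± 0.0706), Rab12 (0.49 ± 0.0879) and Rab28 (0.34 ± 0.0621).

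Without the replicate block, no Rab gene passed the test between KO and WT muscle at the early ages. At P1, 0 of 58 members were DEGs by edgeR and 0 by DESeq2 (background 0.0442%), with 4 (6.9%) at an unadjusted P under 0.05 against 10.9% of all genes (Rab27a, Rab3b, Rab5a and Rab9b). At P14 the counts were 0 of 53 by both tools (background 0.0318%), again with 4 (7.55%) at an unadjusted P under 0.05 against 6.82% of all genes, which were Rab13, Rab15, Rab35 and Rab3a. Rab13 lay at 7.12 to 8.65 CPM in WT and at 9.05 to 10.4 CPM in KO muscle at P14, and Rab15 at 6.13 to 11.4 and 11.5 to 16.2 CPM, with no overlap for either gene. Rab3a lay at 38.7 to 50 and 32.6 to 40.2 CPM, and the ranges overlapped. At P14 libraries of both genotypes with the same replicate number deviated together, but the labels do not say what the numbers mark. With a replicate block these 3 passed the wider call: Rab13 with a log2 fold change of 0.32 ± 0.061 (adjusted P = 0.0167), Rab15 with 0.69 ± 0.125 (adjusted P = 0.0139) and Rab3a with -0.28 ± 0.0474 (adjusted P = 0.00983). They were 3 of 53 members, or 5.66%, and the same fit called 5.61% of all genes.

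At P21, 3 of 51 members tested were DEGs, all higher in KO muscle (background 3.18% higher and 1.5% lower). Rab13, Rab31 and Rab40b were the DEGs. The wider call held 13 higher (background 11.4%) and 2 lower (background 9.57%), the latter being Rab3a and Rab4a. At P35, 8 of 52 were DEGs, with 7 higher (background 8.49%) and 1 lower (background 7.52%), and the wider call held 20 higher (background 21.4%) and 7 lower (background 20.1%). The median log2 fold change over the members tested was 0.16 at P21 and 0.24 at P35, against 0.01 and 0.04 over all genes. WT and KO libraries did not overlap for 18 members higher and 10 lower in KO muscle at P35, which is 34.6% and 19.2% of members tested against 19.2% and 20.4% of all genes.

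**Figure D2:**
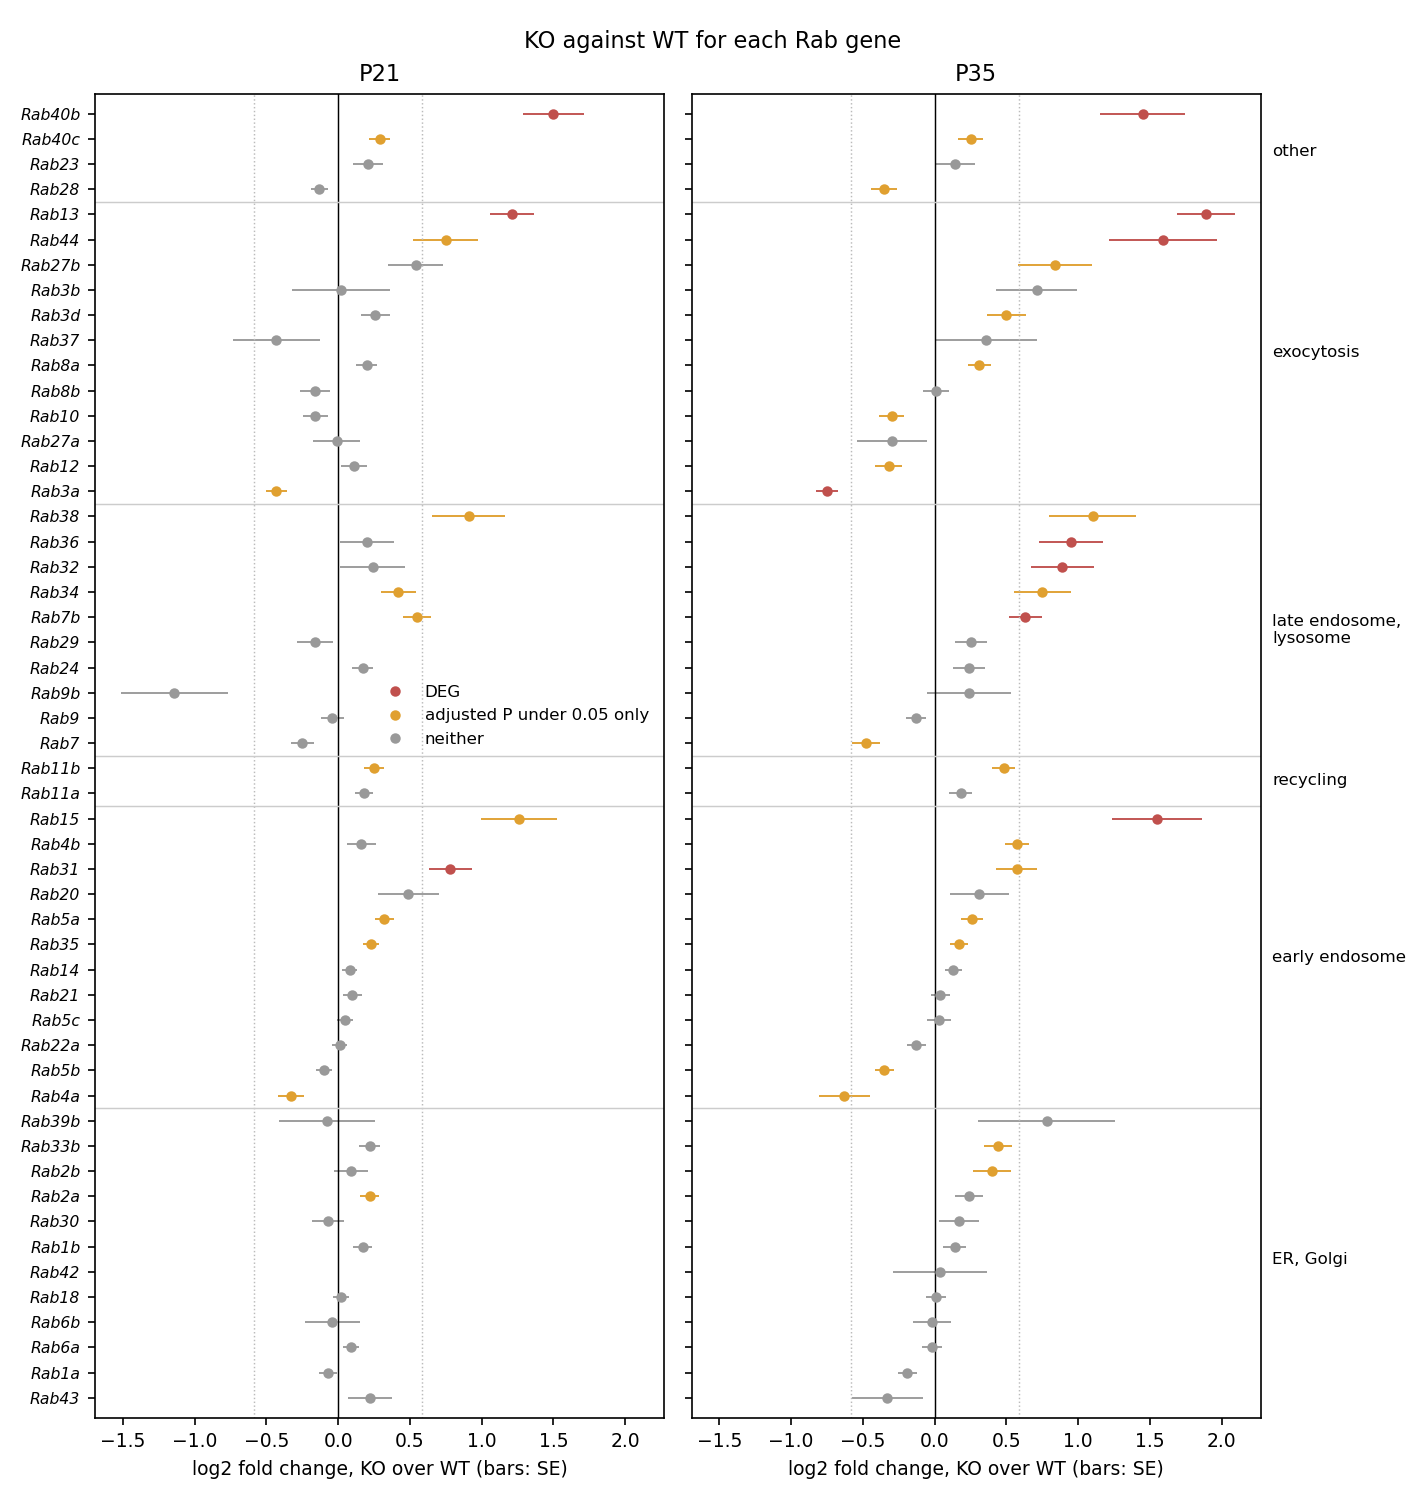
log2 fold change of KO over WT (points, with SE as bars) for the 52 Rab genes tested at P35 and for those also tested at P21, grouped by the compartment on which each Rab acts. Red marks DEGs, orange genes of the wider call alone, and dotted lines the fold limit of a DEG. The members farthest to the right at P35 were Rab13 at 1.89, Rab44 at 1.59, Rab15 at 1.55 and Rab40b at 1.45, and the DEG to the left was Rab3a at -0.75.

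The scaling of libraries bears on the split of directions. With library totals the median of all genes moved to 0.20 at P21 and 0.44 at P35, and the Rab DEGs became 7 higher and 0 lower at P21 and 23 higher and 0 lower at P35. The share of all genes called with library totals is not given here, so these counts cannot be set against a background. Changes are given relative to TMM, which by construction centres most genes near 0. With TMM the median of all genes stayed within 0.04 of 0 at P21 and P35, which is no evidence for this scaling. Other markers moved with the KO groups at P35. The summed fibre markers were 48790 to 70715 CPM in KO and 76996 to 125807 CPM in WT muscle, with Acta1 lower as a DEG. The 5 macrophage markers summed to 57.8 to 81.1 CPM in KO and 53.2 to 66.3 CPM in WT muscle, with Cd68 and C1qa higher as DEGs, as they also were at P21. Adipoq, Plin1 and Lep of fat cells and Sox9 of cartilage were higher DEGs, and Pax7 and Calcr of satellite cells and Tek and Cdh5 of endothelium were lower DEGs, with Pax7 and Calcr also lower at P21. Sox9 was the only DEG among 3 cartilage and bone markers tested. Its list of 5 summed to 13.6, 154, 15.9 and 17.3 CPM in KO and 6.55 to 13.5 CPM in WT muscle. Mitochondrial genes took 10.3 to 10.5% of counts in KO and 12.4 to 17.9% in WT muscle at P35, and 8.21 to 8.78% and 9.75 to 12% at P21, with no overlap. Schwann cell markers summed to 207 to 871 CPM in KO and 47.3 to 401 CPM in WT muscle, with no DEG. Neutrophil and keratinocyte markers stayed low, with sums of at most 1.14 and 6.97 CPM in the P35 libraries. The part of these cells and of the mitochondrial share in the Rab differences was not tested.

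Rabs of exocytosis and GLUT4 vesicles held the member with the largest fold change at P35, Rab13, whereas at P21 Rab40b and Rab15 lay above it in fold change. Rab13, which directs vesicles to the surface membrane and takes part in GLUT4 traffic in muscle cells (ENSMUSG00000027935, chromosome 3, 90213695 to 90226385, GRCm38), lay at 5.48, 6.93, 5.41 and 7.29 CPM in WT muscle at P35 and at 20, 15.6, 29.0 and 27.3 CPM in KO muscle. The lowest KO library, at 15.6 CPM, stood well above the highest WT library, at 7.29 CPM. This was a log2 fold change of 1.89 ± 0.2 (SE), or 3.72-fold (adjusted P = 0.000187, edgeR). At P21 it was measured at 4.52, 5.38, 5.48 and 4.89 CPM in WT mice, as opposed to 10.6, 13.3, 8.78 and 13.9 CPM in KO mice (log2 fold change 1.21 ± 0.154, adjusted P = 0.00116). Both calls held without any 1 library and under all other settings tried. In WT muscle Rab13 went down from 10.9 to 11.8 CPM at P1 to 4.52 to 5.48 CPM at P21, so that KO muscle at P35 was above all WT libraries of any age.

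Rab44, a large Rab with EF-hands known from granules of blood-derived cells (ENSMUSG00000064147, chromosome 17, 29114145 to 29148980), was a low transcript. It lay at 0.511, 0.468, 0.973 and 0.254 CPM in WT muscle at P35 and at 1.24, 1.30, 2.28 and 1.71 CPM in KO muscle (log2 fold change 1.59 ± 0.374, adjusted P = 0.00831). The groups did not overlap, but the adjusted P rose above 0.01 in 7 of 8 fits that left out 1 library (all but WT replicate 3), up to 0.0275. A ribosomal pseudogene on the opposite strand of the same locus, Rpl35a-ps3, had a mean of 0.898 CPM in WT and 1.21 CPM in KO muscle, and was not a DEG (adjusted P = 0.0604). Whether counting used the strand is not given in the sources used here, so reads of the 2 genes may not be separable.

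Rab3a, the Rab of synaptic vesicles and other regulated secretion (ENSMUSG00000031840, chromosome 8, 70754679 to 70758677), was the 1 DEG that was lower by edgeR at P35. DESeq2 called 11 members at this age, among them Rab4a as a lower one (log2 fold change -0.65, adjusted P = 0.00369) and Rab27b and Rab34 as higher ones (0.82 and 0.73). The share of all genes that DESeq2 called is not given here, and the overlap of Rab4a with another gene is described below. Rab3a lay at 41.7, 42.1, 43.0 and 42.5 CPM in WT muscle at P35 and at 26.4, 21.5, 24.6 and 26.2 CPM in KO muscle. WT libraries were close to each other and stood clear of all KO libraries (log2 fold change -0.75 ± 0.0761, adjusted P = 0.000152). WT mice of P21 had 43.0, 43.3, 38.1 and 42.2 CPM, and their KO counterparts 28.5, 30.5, 29.4 and 34.4 CPM, again with no overlap (log2 fold change -0.43 ± 0.0745, adjusted P = 0.00453, under the fold limit of a DEG). Rab3a was thus lower in KO muscle by the wider call at both ages, and at P35 with library totals it was still lower, by a log2 fold change of -0.35 (adjusted P = 0.00156), short of the fold limit. Mpv17l2, which overlaps Rab3a on the opposite strand, had means of 12.6 and 14.3 CPM (adjusted P = 0.127).

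Of the other exocytosis members, Rab27b (log2 fold change 0.84 ± 0.258), Rab3d (0.50 ± 0.134) and Rab8a (0.31 ± 0.0803) passed the wider call in the higher direction at P35. Rab10 (-0.30 ± 0.0894) and Rab12 (-0.32 ± 0.0944), both abundant, passed it in the lower direction, and with library totals both turned to the other sign at 0.11 and 0.08. Rab12, named above for recycling and autophagy, was listed in this group, and the group's totals rest on that placement. Rab10 lay at 415 to 523 CPM in WT and at 363 to 406 CPM in KO muscle. In total this group of 12 tested had 2 DEGs higher (16.7%, background 8.49%) and 1 lower (8.33%, background 7.52%), with a median of 0.34 against 0.04 over all genes.

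**Figure D3:**
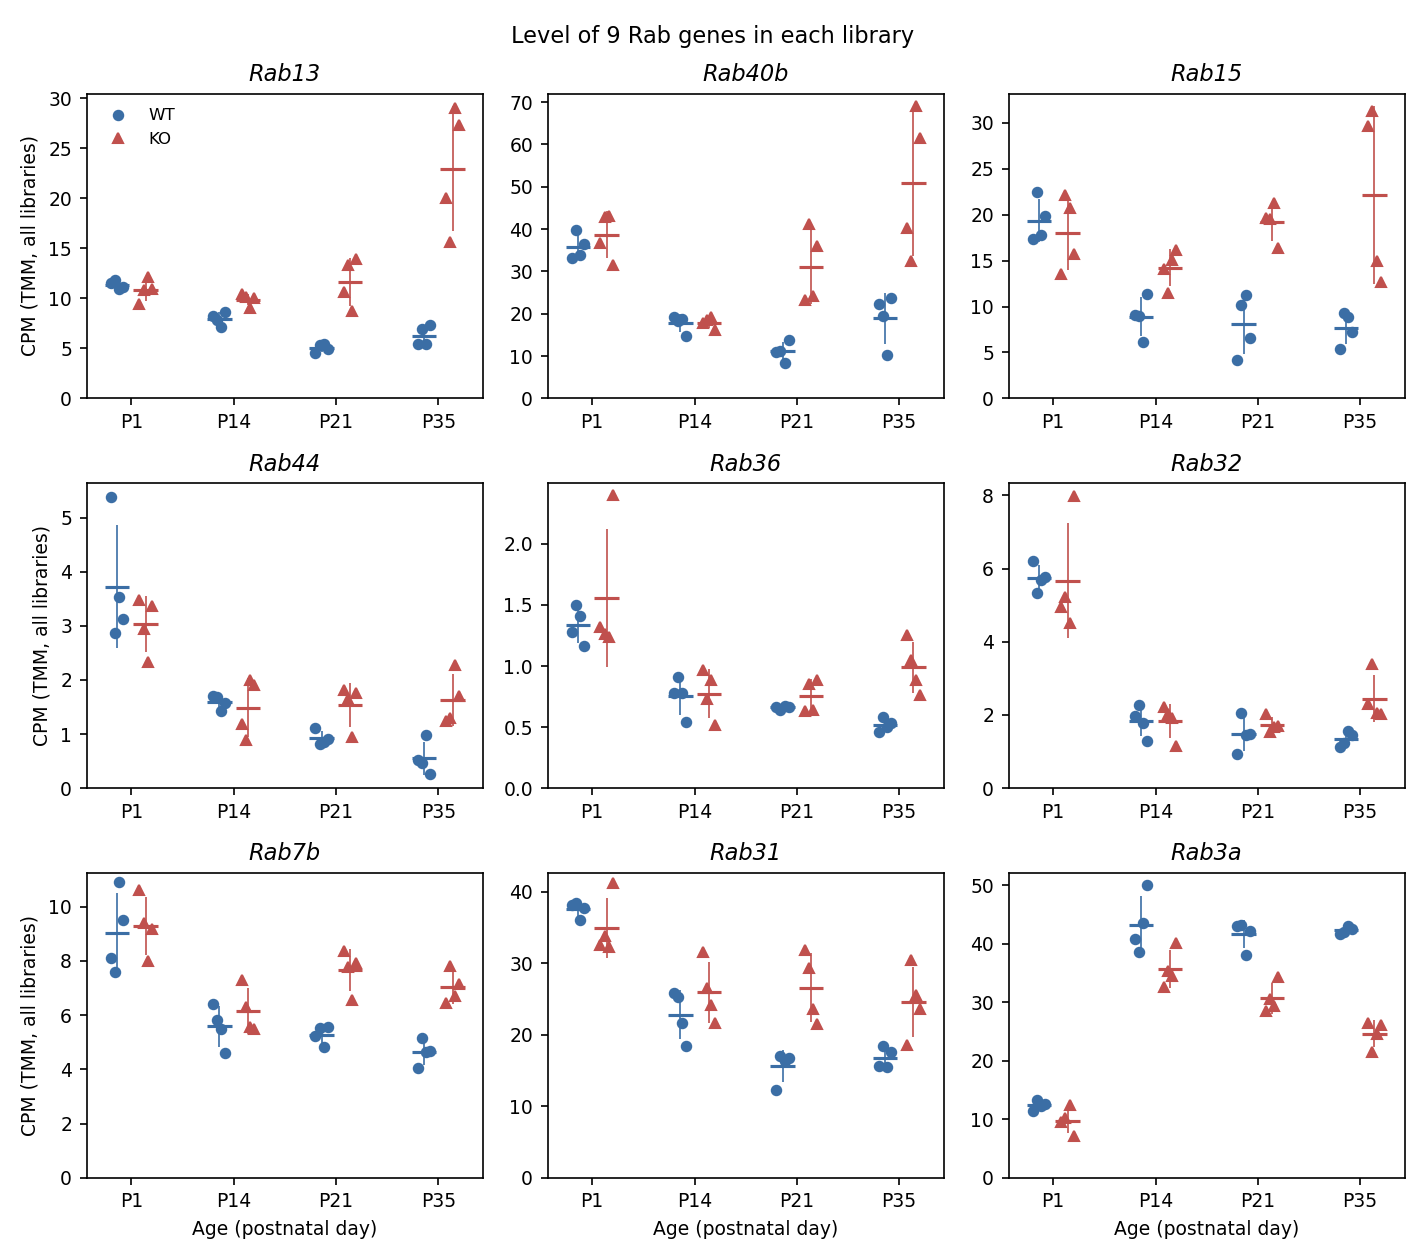
CPM of 9 Rab genes in each library by age, for WT (circles) and KO (triangles), with the mean as a short line and the SD as a vertical bar (n = 4). Rab13 in KO muscle reached 15.6 to 29.0 CPM at P35 with WT at 5.41 to 7.29 CPM, and Rab3a stayed at 38.1 to 50 CPM in WT from P14 on while KO fell to 21.5 to 26.4 CPM at P35.

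Rab40b, which carries a SOCS box and serves as the substrate adaptor of a Cullin-5 ubiquitin ligase (ENSMUSG00000025170, chromosome 11, 121356125 to 121388251), had a large difference at both late ages. At P21 it lay at 11, 11.1, 8.38 and 13.9 CPM in WT mice, as opposed to 23.2, 41.1, 24.3 and 36.0 CPM in KO muscle (log2 fold change 1.5 ± 0.212, adjusted P = 0.00184). WT mice of P35 had 22.2, 19.5, 10.2 and 23.6 CPM, as opposed to 40.2, 32.5, 69.0 and 61.4 CPM for KO mice (1.45 ± 0.296, adjusted P = 0.00403). KO replicates 3 and 4 were highest at P35, and no KO library reached down to WT at either age. Leaving out WT replicate 2 or KO replicate 3 or 4 took the adjusted P at P35 above 0.01, up to 0.0127. With the replicate block the P35 call was lost as well (1.43, adjusted P = 0.0116). At P14 the gene did not separate the genotypes, with 14.7 to 19.2 CPM in WT and 16.2 to 19.3 CPM in KO libraries. Rab40c, its paralog, passed the wider call at both ages (0.29 ± 0.0745 and 0.25 ± 0.0867).

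Rabs of the early endosome had 1 DEG of 12 tested at each of the late ages, both higher (8.33%, with backgrounds of 3.18% at P21 and 8.49% at P35). Rab15, which slows endocytic recycling (ENSMUSG00000021062, chromosome 12, 76797960 to 76822908), lay at 5.38, 9.31, 8.83 and 7.26 CPM in WT muscle at P35 and at 29.6, 31.3, 15.0 and 12.7 CPM in KO muscle. The KO libraries fell into a high and a low pair, and even the low pair was above WT (log2 fold change 1.55 ± 0.312, adjusted P = 0.00373). At P21 the WT values were 4.23, 10.2, 11.2 and 6.56 CPM and the KO values 19.6, 19.5, 21.3 and 16.4 CPM (1.26 ± 0.265, adjusted P = 0.0102). That adjusted P missed the limit narrowly, and 6 of 9 other settings called it. Leaving out WT replicate 1 or 4 at P35 raised the adjusted P to at most 0.0129. Fntb, a farnesyltransferase subunit that overlaps Rab15 on the opposite strand, had means of 14.1 CPM in WT and 16.9 CPM in KO muscle at P35 (log2 fold change 0.29 ± 0.0981, adjusted P = 0.0407).

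Rab31, of transport between the Golgi and endosomes (ENSMUSG00000056515, chromosome 17, 65651729 to 65772752), was a DEG at P21 but not at P35. At P21 it lay at 12.3, 17.0, 16.4 and 16.7 CPM in WT mice, as opposed to 31.9, 29.3, 23.6 and 21.5 CPM in KO muscle (log2 fold change 0.78 ± 0.149, adjusted P = 0.00698). WT mice of P35 had 15.6, 18.5, 15.5 and 17.6 CPM, as opposed to 18.6, 30.4, 25.6 and 23.6 CPM for KO mice (0.57 ± 0.141, adjusted P = 0.0102). The lowest KO library at P35 was close to the highest WT library. The difference between the ages did not pass the interaction test (difference -0.22 ± 0.202, adjusted P = 0.614), and the P21 call was lost in 7 of 8 fits without 1 library (all but KO replicate 4), with an adjusted P of up to 0.0228. The replicate block also lost the P21 call of Rab31 (0.77, adjusted P = 0.0193). Rab4b (0.57 ± 0.0835) and Rab4a (-0.63 ± 0.179), paralogs of fast recycling, passed the wider call in opposite directions at P35, of which Rab4a was no longer called with library totals (-0.23, adjusted P = 0.253). Gm20388 overlaps Rab4a on the same strand and had means of 38.2 CPM in WT and 42.5 CPM in KO muscle at P35 (adjusted P = 0.205, edgeR). Rab4a itself had means of 9.13 and 5.8 CPM, and reads of these genes may not be separable. Rab5a was higher (0.26 ± 0.0738) and its abundant paralog Rab5b lower (-0.35 ± 0.0633, turning to 0.05 with library totals), while Rab5c was at 0.03.

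The late endosome and lysosome group held 3 of the 7 higher DEGs at P35, or 3 of 10 tested (30%, background 8.49%), with a median of 0.44 against 0.04 over all genes. Rab7b, which works between late endosomes and the Golgi (ENSMUSG00000052688, chromosome 1, 131688695 to 131715439), lay at 4.04, 5.17, 4.65 and 4.66 CPM in WT mice, as opposed to 6.43, 7.82, 6.69 and 7.15 CPM in KO muscle. The groups were well apart at this age (log2 fold change 0.63 ± 0.114, adjusted P = 0.0023), and at P21 they had 4.81 to 5.56 and 6.55 to 8.38 CPM (0.55 ± 0.1, adjusted P = 0.00575, under the fold limit). Without WT replicate 1 or KO replicate 2 the P35 fold change fell below the limit, to as little as 0.56.

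Rab32, which serves lysosome-related organelles and mitochondria (ENSMUSG00000019832, chromosome 10, 10545002 to 10558265), lay at 1.12, 1.24, 1.57 and 1.45 CPM in WT mice, as opposed to 2.29, 3.39, 2.05 and 2.03 CPM in KO muscle at P35 (log2 fold change 0.89 ± 0.216, adjusted P = 0.00977). KO replicate 2 was the highest of the 8. Rab36, which binds the lysosomal effector RILP (ENSMUSG00000020175, chromosome 10, 75037058 to 75054748), lay at 0.46, 0.59, 0.50 and 0.53 CPM in WT mice, as opposed to 1.25, 1.05, 0.888 and 0.766 CPM (0.95 ± 0.221, adjusted P = 0.00766). Neither pair of groups overlapped. Both calls were marginal: the one for Rab32 was lost without any 1 library (adjusted P 0.0131 to 0.0295) and the one for Rab36 without any 1 library other than KO replicate 4 (up to 0.0219). With the replicate block the calls of Rab32 and Rab36 were lost too (adjusted P = 0.0255 and 0.0244), and with no filter that of Rab36 (0.0133). At P21 neither gene passed the test (0.24 ± 0.224 and 0.20 ± 0.19). Rab38 (1.10 ± 0.302) and Rab34, which positions lysosomes (0.75 ± 0.198), passed the wider call at P35. Rab7 went the other way, from 346, 301, 263 and 289 CPM in WT to 211, 219, 193 and 222 CPM in KO muscle (-0.48 ± 0.0968, adjusted P = 0.00376, under the fold limit). No KO library of Rab7 reached the WT range on this scale, and with library totals the difference was -0.08 (adjusted P = 0.492). DESeq2, which does not use TMM, gave -0.50 (adjusted P = 1.92e-05). The wider call thus depends on scaling other than by library totals.

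Rabs of the ER and Golgi were not among the DEGs of P21 and P35 by edgeR with TMM or by DESeq2. With library totals Rab2a, Rab2b and Rab33b were called higher at P35, at 0.64, 0.81 and 0.84. Rab33b, of the Golgi and autophagosome formation, passed the wider call at P35 (log2 fold change 0.44 ± 0.0986, adjusted P = 0.00655), as did Rab2b (0.40 ± 0.131). Rab1a, Rab6a and Rab18 had log2 fold changes of -0.19, -0.02 and 0.01. The recycling pair Rab11a and Rab11b had 0.18 and 0.48 ± 0.0826, of which the latter passed the wider call.

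Whether the KO difference itself changed between ages was tested as an interaction over all 32 libraries. Between P14 and P21 0 of 57 members passed an adjusted P of 0.01 (background 0.425%) and 5 (8.77%) had an unadjusted P under 0.05 against 12.9% of all genes, with Rab40b next to the limit (difference 1.48 ± 0.315, adjusted P = 0.0131) followed by Rab13 (0.88 ± 0.212, adjusted P = 0.0291). Without KO P21 replicate 3 the count was 2. Between P21 and P35 the count was also 0 (background 0.463%), with 9 (15.8%) at an unadjusted P under 0.05 against 17.4% of all genes, and Rab13 had a further difference of 0.67 ± 0.213 (adjusted P = 0.0894). These 2 tests used edgeR, and DESeq2 was not run for them.

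The KO difference was set beside the early change in WT muscle. All 8 DEGs of P35 had the sign opposite to that of the WT step from P1 to P14, and so had 82.9% of the 2433 DEGs of all genes measured in both comparisons. At P21 it was 3 of 3, against 72.7%. Over all 52 members tested in both, 38 (73.1%) had opposite signs at P35, against 67.2% of all genes. Among the 27 members of the wider call it was 23 (85.2%), against 77.4%, and Rab11b, Rab5a, Rab4b and Rab33b were the 4 with the same sign. Over the 52 members with values in both, Spearman's rho was -0.74 and Pearson's r -0.68 at P35, and over all 15356 genes rho was -0.48 and r -0.46. The comparisons share no library, genes are not independent points, and these are descriptions across genes. The summed keratinocyte markers were 1874 to 5987 CPM in WT libraries at P1 and 2.95 to 3.72 CPM at P14. The part of skin in these signs and correlations was not tested. Of the members that fell as DEGs in WT muscle, 16 were tested at P35 and had a median KO difference of 0.76 (0.40 for all genes of that kind), and the 12 that rose had a median of -0.02 (-0.27 for all genes of that kind).

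**Figure D4:**
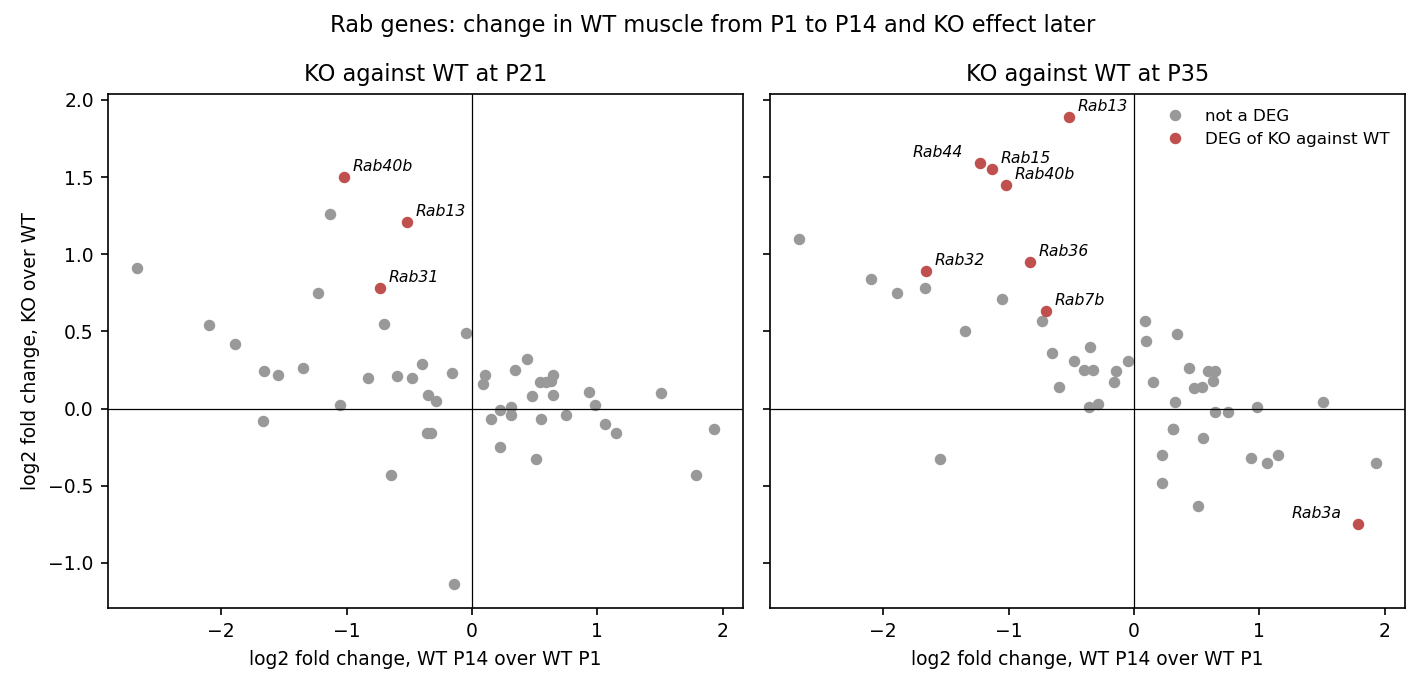
Each point is a Rab gene, with its log2 fold change in WT muscle from P1 to P14 on the x axis and its log2 fold change of KO over WT at P21 (left) or P35 (right) on the y axis. DEGs of KO against WT are named, and all 8 at P35 lie in the upper left or lower right, with Rab3a the one in the lower right.

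In values, Rab15 in KO muscle at P35 (12.7 to 31.3 CPM) overlapped the range of WT muscle at P1 (17.3 to 22.5 CPM), and Rab40b (32.5 to 69.0 CPM) overlapped and passed it (33.1 to 39.9 CPM). Rab32 (2.03 to 3.39 CPM), Rab7b (6.43 to 7.82 CPM) and Rab3a (21.5 to 26.4 CPM) did not reach all the way, with WT levels at P1 of 5.33 to 6.21, 7.60 to 10.9 and 11.4 to 13.3 CPM, although single libraries of Rab7b overlapped.

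The machinery around the Rabs was counted in 4 lists. Of 15 genes for prenylation, GDI and membrane delivery, 2 (13.3%, background 8.49%) were DEGs at P35, both higher: Arl6ip5, a PRA1 family protein of the ER, at 147 ± 10.2 CPM in WT and 406 ± 105 CPM in KO muscle (SD, n = 4, log2 fold change 1.49 ± 0.166, adjusted P = 0.000221), and Yipf2 at 4.58 ± 0.453 and 7.42 ± 0.805 CPM. Arl6ip5 was also a DEG at P21 (0.79 ± 0.102). The median of this list at P35 was 0.19, against 0.04 over all genes.

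Among 51 GEFs tested at P35, 5 were higher (9.8%, background 8.49%) and 5 lower (9.8%, background 7.52%), with a median of -0.14. Rin1, a Rab5 exchange factor that binds Ras, rose from 1.30 ± 0.104 to 6.47 ± 2.04 CPM (log2 fold change 2.34, adjusted P = 0.000175) and was a DEG at P21 as well (2.10 ± 0.333). Dennd2c (0.91 ± 0.161) and Hps1, part of the exchange factor for Rab32 and Rab38 (0.79 ± 0.184), were the next higher. Dennd4b, an exchange factor for Rab10, fell from 163 ± 20.1 to 66.8 ± 10.4 CPM (-1.27, adjusted P = 0.000153), followed by Rin3 (-1.17 ± 0.143) and Dennd4c, also of Rab10 (-0.97 ± 0.0887), whose fold change with library totals, -0.56, was short of the limit. The call for Hps1 was lost in 7 of 8 fits without 1 library (all but KO replicate 3), with the replicate block (adjusted P = 0.0167) and with no filter (0.0112).

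Of 40 GAPs tested at P35, 1 was higher (2.5%, background 8.49%) and 3 were lower (7.5%, background 7.52%), with a median of -0.11. Tbc1d1, the GAP that holds back GLUT4 vesicle Rabs until muscle contracts, lay at 221 ± 61.5 CPM in WT and 79.4 ± 18.6 CPM in KO muscle at P35 (-1.45 ± 0.223, adjusted P = 0.000991). At P21 it was at 108 ± 26.6 and 114 ± 30.4 CPM, and the change of the KO difference between the ages passed the test (difference -1.55 ± 0.27, adjusted P = 0.00228). Tbc1d16 (-1.01 ± 0.0876) and Grtp1 (-0.86 ± 0.143) were the other lower ones, and Tbc1d31 the higher one (1.21 ± 0.159). With library totals Grtp1 was no longer called (-0.46, adjusted P = 0.0293).

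Effectors were the largest list, with 83 tested at P35, of which 6 were higher (7.23%, background 8.49%) and 10 lower (12%, background 7.52%), with a median of -0.14. Mical2, an oxidase of actin, fell from 67.5 ± 23.7 to 19.3 ± 3.7 CPM (-1.78 ± 0.237, adjusted P = 0.000488) and was lower at P21 too (-1.22 ± 0.124). Myo5c (-1.16 ± 0.186) and Plin3, a lipid droplet coat protein that binds Rab9 (-1.11 ± 0.175), came next. In the higher direction Rab11fip1 (1.47 ± 0.232) and Rab11fip5 (1.25 ± 0.119), both Rab11 effectors of recycling, and Myo5a, a vesicle motor (0.76 ± 0.125), led. Another member of that family, Rab11fip2, was lower (-0.71 ± 0.133), and no longer called with library totals (-0.30, adjusted P = 0.0784). At P21, 2 effectors were higher (2.41%, background 3.18%) and 3 lower (3.61%, background 1.5%).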

How the data were processed

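Poly(A) RNA of 32 muscle samples was sequenced with a directional kit. The values the authors deposited are expected counts of each gene, with no scaling between libraries. Per the labels' processing notes, reads were aligned to GRCm38 with STAR 2.6.1 and counted with RSEM 1.2.22, while the study's methods name HTSeq. Whether counting used the strand is not given in the sources used here. Of the values, 4.26% were not whole. Symbols and gene positions came from GENCODE M21 (54809 of 54838 genes).

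Expected counts were rounded and fitted in R 4.3.3 with edgeR 4.0.16: filterByExpr by group, TMM, glmQLFit and glmQLFTest. Tests were two-sided, and P-values were adjusted after Benjamini and Hochberg over all genes tested. Each comparison used its own 8 libraries, and interactions used all 32 with 8 group means. SE is that of the log2 fold change in this fit. DESeq2 1.42.0, RLE, library totals, no filter, 10 counts in every library, unrounded counts, the adjusted deviances of newer edgeR, 1 fit of all libraries, a replicate block and leaving out each library were alternatives. The fit was tested on simulated data.

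Members and lists were chosen with earlier results of these data known, and list membership rests on general knowledge. The lists are not exclusive: Rabep1 was in those of GEFs and effectors, and Tbc1d2 in those of GAPs and effectors. Binding of a Rab by each listed effector was not checked. Described in full were Rab genes called between genotypes at any age. By level, the 6 highest per kb and the 3 with the largest change in each direction from P1 to P14 were named, and from each regulator list the 3 highest and 3 lowest DEGs of P35. Any other member was named after its values were seen. Replicate numbers came from the labels. Across genes, the deviations from the group means of WT and KO libraries with 1 number correlated with r = 0.514, 0.59, 0.413 and 0.81 at P14, and over 0.1 in all 4 pairs at no other comparison. For WT replicate 2 at P14, a KO library of another number correlated more strongly. The labels do not say that the numbers mark litters, so pairing at P14 rests on these correlations alone. Summaries used pandas 2.3.3 in Python 3.11.15, and figures used matplotlib 3.10.9.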

Additional observations from a re-analysis of the deposited data

Results flagged for a closer look

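Single libraries stood apart in 3 of 72 groups of 4 examined (9 Rab genes in 8 groups), and chance alone gives about 1 such group in 20. Rab31 was at 12.3 CPM in WT replicate 1 at P21 and at 16.4 to 17.0 CPM in the other 3, so that this library lies on the side of a larger KO difference, and without it the log2 fold change of Rab31 at P21 was 0.66 (adjusted P = 0.0159), no longer a call. KO replicate 4 at P1 had 41.2 CPM of Rab31 with 32.3 to 33.8 CPM in its group, and 2.40 CPM of Rab36 with 1.24 to 1.32 CPM in its group. That library also held 101 counts of Rab3c, with at most 12 in any other library, and the lowest sum of fibre markers at P1. Their relation was not tested, and no P1 call of a Rab gene depended on it, with 0 DEGs in each fit that left out 1 library.

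The KO effect differed between ages for 2 GAPs, by the interaction of P35 and P21: Tbc1d1 with a difference of -1.55 (adjusted P = 0.00228) and Sgsm3 with -0.60 (adjusted P = 0.005). Sgsm3 had a log2 fold change of 0.21 at P21 and -0.37 at P35, and its call was lost in 8 of 16 fits without 1 library, with the replicate block (adjusted P = 0.0102), with library totals (-0.37, adjusted P = 0.0418) and with the 16 libraries of both ages alone (-0.58, adjusted P = 0.0349). For Tbc1d1 the call was kept in all 16 such fits and lost when only the 16 libraries of both ages were used (-1.53, adjusted P = 0.0347).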

How the results depend on the processing

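Library totals gave 7 Rab DEGs at P21 and 23 at P35, and 1 interaction between P14 and P21, where the fit of 16 libraries also gave 1. By construction, library totals shift all genes together. Shares of all genes called are not given for these other settings, except for the wider call with the replicate block at P14. The replicate block gave 5 at P35 and 0 in the WT step from P14 to P21, and changed no other count by over 1.5 times (3 at P21, 29 from P1 to P14, and 0 at P1, at P14, from P21 to P35 and in both interactions). DESeq2 gave 2 in the WT step from P21 to P35 (main 0). The cause of these shifts was not tested. Leaving out 1 library gave 0 to 0 at P1 and at P14, 2 to 4 at P21, 3 to 7 at P35, 27 to 30, 0 to 6 and 0 to 1 in the WT steps, and 0 to 2 and 0 to 0 for the interactions. At P35 the count was 3 without WT replicate 1, 4 without WT replicate 2 or 4 or KO replicate 3, and 5 without KO replicate 2. In the last WT step it was 1 without WT P35 replicate 3. Of the values of the 9 Rab genes in full, 154 of other settings kept their side of the threshold, 10 gained a call and 6 lost one, and of leave-one-out values 111 kept it, 5 gained and 36 lost. No value changed sign with a call. The calls of Rab36, Rab44 and Rab32 at P35 were lost in 7, 7 and 8 of 8 fits without 1 library, and that of Rab31 at P21 in 7 of 8.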

Other observations

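Between P21 and P35 comparisons, which have no library in common, 41 of 51 Rab genes tested at both ages (80.4%) kept the sign of the KO difference, near the 78.4% of all genes, and all 14 members that passed the wider call at both ages kept it, as did 2533 of 2538 of all genes. Spearman's rho across these 51 genes was 0.69, against 0.71 across all genes.

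At P35 Rab4a and Rab4b, Rab5a and Rab5b, and Rab7 and Rab7b lay on opposite sides of 0 in KO muscle, each by the wider call, as did Rab3a and Rab3d. With library totals Rab4a, Rab5b and Rab7 were not called, and in these pairs only Rab3a kept a lower call. Rab4a also overlaps Gm20388 on the same strand, as given above. Rab40b and Rab40c, Rab11a and Rab11b, Rab2a and Rab2b, and Rab8a and Rab8b were pairs with the same sign. These pairs were picked with their values known. The pseudogenes Rab11b-ps2 and Rab7-ps1 peaked at 0.746 and 0.925 CPM over the 32 libraries.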
